A study of Mus musculus with 27 samples.

Results

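Transcripts of 9 genes that respond to mechanical load or take part in hypertrophic signalling of heart muscle were followed in hearts of mice that lack the long non-coding RNA gene Hand2os1, also called Hand2as or Uph. The genes were taken by name (Ankrd1, Csrp3, Xirp1, Xirp2, Nrap, Fhl1, Fhl2, Rcan1 and Lmcd1), with earlier results of these data known. All 9 were among the 24025 genes of the bulk table and among the 19020 genes of the single-cell table.

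The series set homozygous deletions against heterozygous or wild-type controls, all in C57BL/6 mice. Allele F removes the full length of Hand2os1 and allele D removes its 3′ distal part. Bulk messenger RNA came from F/+ hearts (3 libraries) and F/F hearts (3) at E11.5 (embryonic days after conception), and from F/+ ventricles (3) and F/F ventricles (3) at E16.5. Cardiomyocytes of 8-week-old mice gave 5 +/+, 2 D/+ and 6 D/D libraries. A pair of droplet libraries, 1 of +/+ and 1 of F/F embryos, was made from E11.5 hearts, each from the trypsinised and live-sorted cells of 6 pooled hearts. The labels name no further allele or agent, the controls at both embryonic stages carried 1 F allele, and no labels state that bulk replicates came from separate animals, so p-values measure the spread between these libraries.

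In striated muscle, force passes along the sarcomere to the Z-disc, the plate that anchors actin and titin, and to the intercalated disc, which joins neighbouring cells. Proteins seated at these sites and along titin also act as load sensors, and several of them move between the sarcomere and the nucleus. Load and calcium entry also activate the phosphatase calcineurin, which lets NFAT factors enter the nucleus, and genes of all these groups are used as markers of hypertrophy and wall stress.

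Bulk values were FPKM, reads or fragments scaled by transcript length and by library size, so levels of different genes can be set beside each other but the read depth is unknown. Columns summed to 334194 to 586795 FPKM, with 9495 to 11641 genes at 1 FPKM or more. Haemoglobin genes took 10.4% to 29.7% of the FPKM at E11.5 and at most 2.42% later. The Hand2os1 transcript (LOC102636514 in the table) had a value of 0 throughout E11.5, so it checks no label there. At E16.5 it stood at 0.37 to 1.40 FPKM in F/+ and at 0 in F/F. At 8 weeks it lay at 6.90 to 13.5 FPKM in 4 +/+ libraries, at 5.25 and 6.17 FPKM in D/+, and at 0 to 2.67 FPKM in D/D. The library labelled +/+ replicate 5 was listed at 0 and so goes against its label. The members' 8-week differences and the counts of genes called that use it are given with and without it. Medians, counts by sign or unadjusted p, and shares of genes without overlap are given with it only. All 11 cardiomyocyte markers were found in every bulk group. In bulk tissue, fewer cells of a type and less RNA per cell cannot be told apart.

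Windows of 250 bases upstream of annotated starts show where the factors of these pathways have their motifs beside the members (RefSeq, assembly GRCm38.p6). The table held 12 starts of 8 members among 32851 entries. The windows were searched on both strands for the CArG box of serum response factor, the MEF2 box, CATTCC (bound by TEAD factors), GGAAAA (bound by NFAT) and GATAAG (bound by GATA factors). The CArG box stood in 4 of the 12 windows and in 1.47% of all windows. The MEF2 box stood in 2 of the 12 and in 2.92% of all. CATTCC was found in 1 of the 12 (Ankrd1) and 12.6% of all, GGAAAA in 1 (Rcan1) and 20.4%, and GATAAG in 1 (Fhl2) and 6.55%. In Fhl2 a MEF2 box and a CArG box shared 1 window without overlapping. The windows below are those that lie outside annotated exons and hold a motif, each 5′ to 3′ in the gene's direction with the motif in capitals.
Fhl2, second start, chr1:43163962-43164211, minus strand, CArG box: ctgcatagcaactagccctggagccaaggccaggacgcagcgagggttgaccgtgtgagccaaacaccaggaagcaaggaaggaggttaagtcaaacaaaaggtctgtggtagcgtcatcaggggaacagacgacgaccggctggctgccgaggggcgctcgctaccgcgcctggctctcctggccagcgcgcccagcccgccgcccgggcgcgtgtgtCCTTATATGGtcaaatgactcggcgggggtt
Lmcd1, chr6:112273508-112273757, plus strand, CArG box: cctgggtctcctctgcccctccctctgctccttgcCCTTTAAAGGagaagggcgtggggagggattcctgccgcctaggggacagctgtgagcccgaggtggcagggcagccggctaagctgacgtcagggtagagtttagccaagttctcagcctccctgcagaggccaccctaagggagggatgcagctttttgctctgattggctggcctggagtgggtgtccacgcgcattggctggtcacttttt
Rcan1, second start, chr16:92400079-92400328, minus strand, GGAAAA once on each strand: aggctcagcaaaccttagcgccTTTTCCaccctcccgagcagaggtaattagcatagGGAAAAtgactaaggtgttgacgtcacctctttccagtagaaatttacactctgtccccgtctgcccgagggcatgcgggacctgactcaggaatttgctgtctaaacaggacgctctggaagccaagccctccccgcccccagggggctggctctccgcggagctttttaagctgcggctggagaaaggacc
Xirp2, chr2:67445752-67446001, plus strand, MEF2 box: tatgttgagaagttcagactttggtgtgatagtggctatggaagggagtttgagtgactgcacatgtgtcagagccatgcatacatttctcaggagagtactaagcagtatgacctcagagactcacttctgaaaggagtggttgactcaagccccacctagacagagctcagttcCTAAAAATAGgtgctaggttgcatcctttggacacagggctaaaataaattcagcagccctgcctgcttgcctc
Counted back from the start, the CArG box lay at -31 to -22 in Fhl2 and at -215 to -206 in Lmcd1, the MEF2 box at -74 to -65 in Xirp2, and GGAAAA at -228 to -223 and -193 to -188 in Rcan1. A match describes these letters only and shows no binding.

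The members lie on 8 chromosomes in GRCm38 (GENCODE annotation), while the bulk reads had been aligned to mm9, so positions are given for orientation. Ankrd1 (chr19:36111961-36120099) and Nrap (chr19:56320035-56390037) share chromosome 19 on the minus strand. Xirp1 lies at chr9:120013755-120023598, Xirp2 at chr2:67446002-67526614, Fhl1 at chrX:56731787-56793346, Fhl2 at chr1:43123074-43196984, Csrp3 at chr7:48830398-48848033, Rcan1 at chr16:92391953-92470867 and Lmcd1 at chr6:112273758-112330425. Nrap shares 376 exon bases with Habp2 and Gm17197 on the other strand and Xirp2 shares 168 with the antisense gene Gm13601. Whether the counting used strand is not given in the sources used here, so reads over those bases cannot be told apart.

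Between the E11.5 heart and the E16.5 ventricle of F/+ mice Nrap, Xirp1 and Lmcd1 rose and Ankrd1 fell. Of 8 members tested by limma on log2(FPKM + 1), 3 rose and 1 fell at a Benjamini-Hochberg adjusted p under 0.05. Over all 11405 genes tested 17.7% rose and 31% fell. In F/F, which shares no library with F/+, again 3 rose and 1 fell, where 17.3% of 11396 genes rose and 29.7% fell. Stage and dissection (whole heart against ventricle) cannot be told apart.

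Ankrd1 encodes a cardiac ankyrin repeat protein that binds titin's spring region and also acts in the nucleus. It stood at 225, 287 and 191 FPKM in F/+ at E11.5 and at 128, 112 and 89.2 FPKM in F/+ at E16.5. Every E16.5 library lay below every E11.5 library, a log2 difference of -1.08 ± 0.19 (SE; limma, adjusted p = 0.0017). In F/F it stood at 334, 174 and 290 FPKM at E11.5 and at 83.1, 94.5 and 200 FPKM at E16.5. The F/F groups overlapped, since E16.5 replicate 3 lay above E11.5 replicate 2. The log2 difference was -1.13 ± 0.35 (adjusted p = 0.0273). Without F/F E11.5 replicate 1 or 3, or F/F E16.5 replicate 1 or 2, the adjusted p was 0.0907, 0.087, 0.0988 and 0.0853, and it was 0.0505 with median-ratio scaling and 0.0612 with no filter on low values, so the F/F call was lost under each of these.

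Csrp3, which encodes muscle LIM protein, a Z-disc protein required for normal heart muscle structure, was the highest member at each embryonic stage. It stood at 375, 460 and 496 FPKM in F/+ at E11.5 and at 484, 427 and 471 FPKM at E16.5. Those groups overlapped, with a log2 difference of 0.06 ± 0.13 (adjusted p = 0.726). In F/F the means were 552 ± 70.8 FPKM (SD, n = 3) at E11.5 and 484 ± 39.3 FPKM (SD, n = 3) at E16.5, a log2 difference of -0.19 (limma, adjusted p = 0.295). With haemoglobin genes left out of the total it was -0.41 (adjusted p = 0.0463) and passed.

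Nrap, an actin-binding scaffold of growing myofibrils that later sits at the intercalated disc, rose most among the members. It stood at 7.52, 4.97 and 1.93 FPKM in F/+ at E11.5 and at 67.2, 67.2 and 75.8 FPKM at E16.5. No library of either stage came near the other stage. Nrap rose by 3.74 ± 0.34 on the log2 scale in F/+ (adjusted p = 8.07e-05) and 3.10 ± 0.22 in F/F (adjusted p = 2.77e-05, limma).

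Xirp1 and Xirp2 encode the Xin repeat proteins, which bind actin filaments at the intercalated disc. Xirp1 stood at 32.8, 53.5 and 25.1 FPKM in F/+ at E11.5 and at 84.2, 93.0 and 99.6 FPKM at E16.5. The stages did not overlap, with a log2 difference of 1.36 ± 0.24 (adjusted p = 0.00221) in F/+ and 1.18 ± 0.22 (adjusted p = 0.00335) in F/F by limma. Xirp2 was at or near 0 in the embryo: from 0 to 0.15 FPKM in the 6 E11.5 libraries and from 0.02 to 0.24 FPKM in the 6 E16.5 libraries. It missed the minimum mean of 1 FPKM and was tested in no comparison within the embryo.

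Fhl1 and Fhl2, whose LIM-only proteins bind titin in the I-band, showed no call between the embryonic stages in either genotype with all libraries. Fhl1 spanned 21.9 to 35.0 FPKM in F/+ at E11.5 and 30.3 to 39.8 FPKM at E16.5 (log2 difference 0.31 ± 0.19, adjusted p = 0.209). Without F/+ E11.5 replicate 3 that difference was 0.48 and passed (adjusted p = 0.0319). Fhl2 spanned 72.8 to 87.6 FPKM and 59.4 to 96.4 FPKM (-0.07 ± 0.18, adjusted p = 0.757). Their ranges overlapped between stages, and the sign of the Fhl2 difference turned with the scaling.

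Rcan1 encodes an inhibitor of calcineurin that is itself switched on by calcineurin and NFAT, and Lmcd1 a LIM protein that restrains GATA6 and has been tied to calcineurin-dependent hypertrophy. Lmcd1 stood at 6.76, 5.91 and 6.21 FPKM in F/+ at E11.5 and at 30.5, 28.7 and 35.5 FPKM at E16.5. No values of the stages overlapped, with log2 differences of 2.15 ± 0.15 in F/+ (adjusted p = 2.51e-05) and 2.14 ± 0.15 in F/F (adjusted p = 2.59e-05, limma). Rcan1 stood at 42.2, 40.9 and 42.2 FPKM in F/+ at E11.5 and at 51.4, 51.1 and 44.2 FPKM at E16.5. All 3 later values were above all 3 earlier ones, yet the log2 difference of 0.22 ± 0.12 did not pass (adjusted p = 0.16). It passed with median-ratio and upper-quartile scaling (0.44 and 0.38, adjusted p = 0.0195 and 0.0316) and turned to -0.09 (adjusted p = 0.578) when haemoglobin genes were left out of the total.

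**Figure D1:**
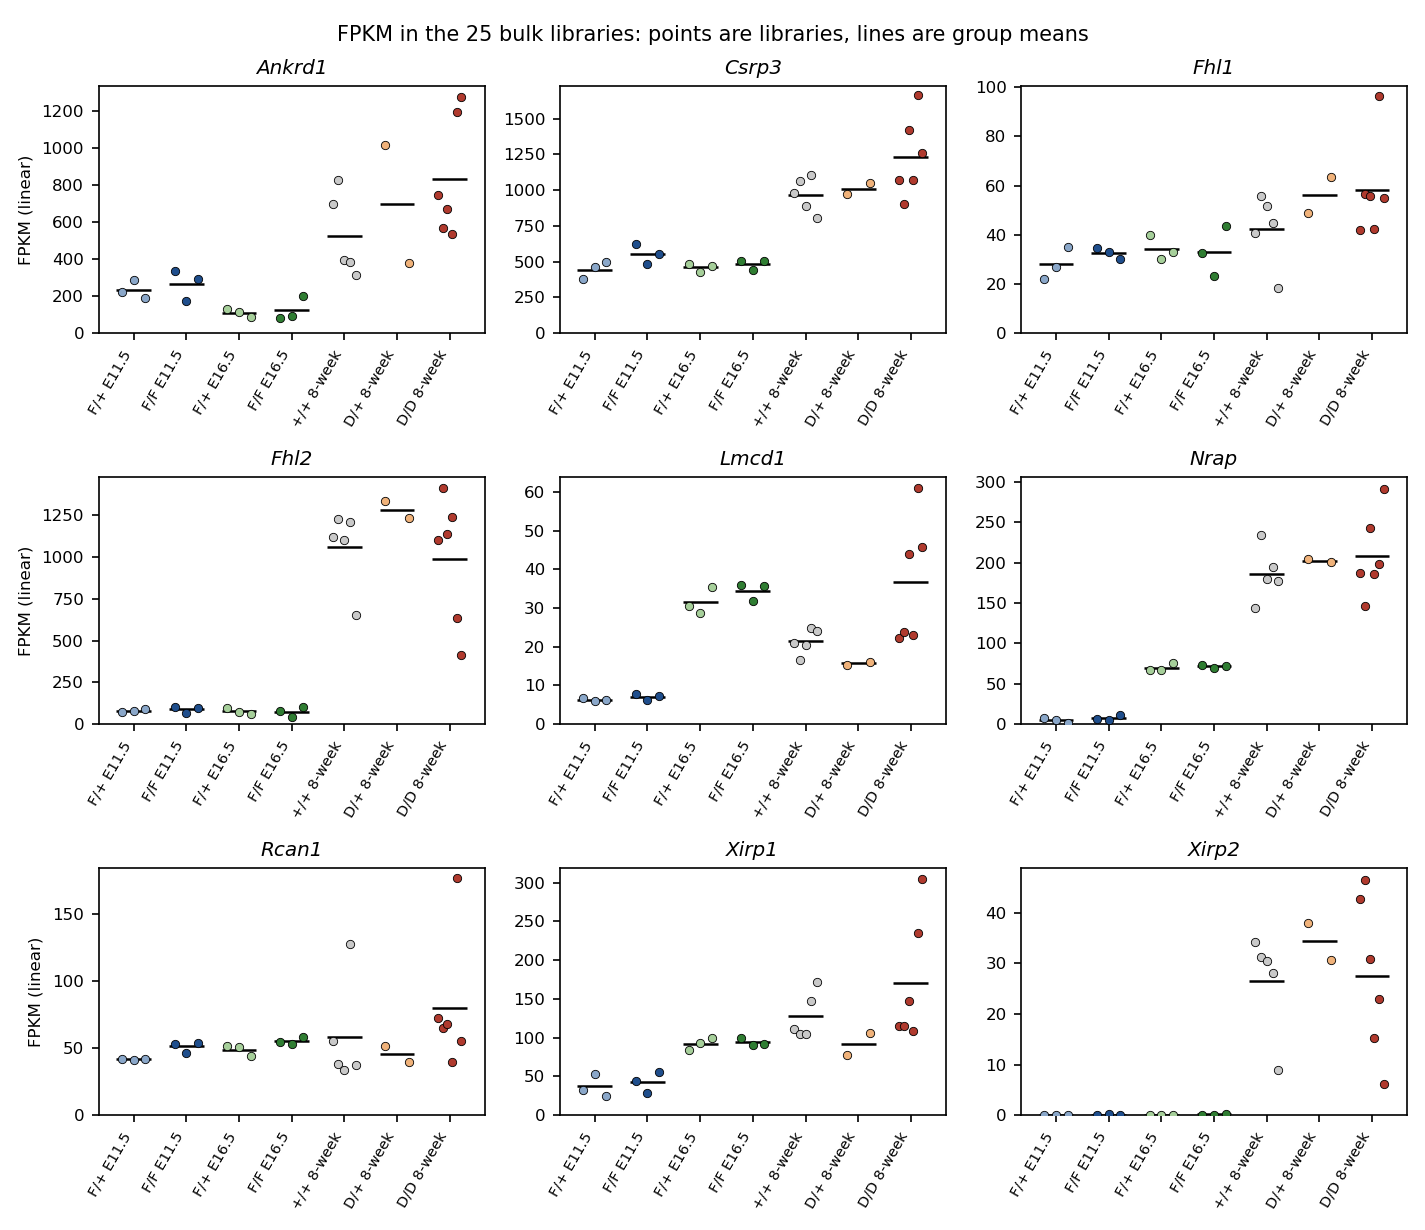
FPKM (linear axes) of each of the 9 genes in the 25 bulk libraries; points are libraries, lines are group means, and groups run from E11.5 hearts over E16.5 ventricles to 8-week cardiomyocytes. Xirp2 and Fhl2 sit far higher in the 8-week libraries, Nrap climbs over all 3 stages, and the 8-week points are the most widely spread.

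Other markers moved between these stages too. Smooth muscle markers (4 of 4 found) summed to 1017 to 1395 FPKM in F/+ at E11.5 and 348 to 375 FPKM at E16.5, erythroid markers to 39241 to 136226 FPKM and 146 to 381 FPKM, and fibroblast markers to 298 to 456 FPKM and 790 to 973 FPKM. Cardiomyocyte markers summed to 11580 to 13759 FPKM at E11.5 and 16657 to 18973 FPKM at E16.5. Gene by gene the calls were split. Of 5 fibroblast markers tested 2 were higher and 2 lower at E16.5, with a median log2 difference of -0.0016. Of 11 cardiomyocyte markers 6 were higher and 3 lower. The part of these markers in the members' differences was not tested.

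In 8-week cardiomyocytes Fhl2, Xirp2, Ankrd1, Nrap and Csrp3 stood above the E16.5 ventricle. Of 9 members tested between +/+ cardiomyocytes and F/+ ventricles, 5 rose (Fhl2, Xirp2, Ankrd1, Nrap, Csrp3) and 1 fell (Lmcd1). Of all 10904 genes 24.9% rose and 44.9% fell. Without the library labelled +/+ replicate 5, 6 members rose (Fhl1 was added) and 1 fell, beside 29.1% and 48.5% of 10994 genes. Between D/D cardiomyocytes and F/F ventricles 6 members rose and 0 fell, where 24.2% of 10967 genes rose and 42.6% fell. Age, cell isolation and alleles all differ between these groups and cannot be told apart. The F/+ ventricles also serve in the embryonic comparison, so the values of both are given side by side only.

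Fhl2 stood at 1120, 1225, 1101, 1211 and 655 FPKM in +/+ cardiomyocytes, against 59.4 to 96.4 FPKM in F/+ ventricles. The lowest value, in the library labelled +/+ replicate 5, was still far above every ventricle. The log2 difference was 3.77 ± 0.23 (adjusted p = 7.56e-07, limma), and 3.93 (adjusted p = 2.95e-08) without that library. In D/D against F/F it was 3.67 ± 0.39 (adjusted p = 1.26e-05, limma). At 8 weeks Fhl2 thus reached the level of Csrp3, which stood at 977, 1062, 891, 1103 and 804 FPKM in +/+. Csrp3 lay above all ventricles, with log2 differences of 1.06 ± 0.14 in +/+ against F/+ (adjusted p = 8.73e-05; 1.13 without replicate 5) and 1.32 ± 0.19 in D/D against F/F (adjusted p = 0.000111).

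Xirp2 stood at 34.3, 31.4, 30.6, 28.0 and 8.83 FPKM in +/+ cardiomyocytes, replicate 5 being the lowest, after at most 0.09 FPKM in F/+ ventricles. The log2 difference of 4.58 ± 0.38 (adjusted p = 5.09e-06) rests on the pseudocount of 1 and understates the change. Without replicate 5 it was 4.92 (adjusted p = 3.22e-09). Nrap stood at 143, 235, 180, 194 and 178 FPKM, above the ventricles' 67.2 to 75.8 FPKM (log2 difference 1.38 ± 0.16, adjusted p = 3.85e-05; 1.39 without replicate 5). Xirp1, at 111, 105, 104, 147 and 172 FPKM, lay above every ventricle but did not pass (0.44 ± 0.19, adjusted p = 0.0572; 0.32 and 0.0507 without replicate 5). It passed with median-ratio and upper-quartile scaling (0.86 and 0.71, adjusted p = 0.00696 and 0.00961) and without +/+ replicate 2 or 3 (adjusted p = 0.0436 and 0.0452). In D/D against F/F, Xirp1 differed by 0.74 ± 0.32 (adjusted p = 0.0608). It passed with median-ratio scaling (1.17, adjusted p = 0.00971), upper-quartile scaling (1.01, 0.0147) and all 25 libraries in 1 fit (0.0283), and without D/D replicate 1, 2 or 4 (0.046, 0.0446 and 0.0406). In the same comparison Xirp2 differed by 4.40 ± 0.51 (adjusted p = 2.29e-05) and Nrap by 1.499 ± 0.20 (adjusted p = 6.56e-05).

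Ankrd1 turned from its fall in the embryo: it stood at 696, 830, 397, 386 and 312 FPKM in +/+ cardiomyocytes. All 5 values exceeded every E16.5 and every E11.5 F/+ value, and replicates 1 and 2 were apart from the other 3. The log2 difference from F/+ ventricles was 2.16 ± 0.32 (adjusted p = 0.000204; 2.32 without replicate 5), and from F/F ventricles to D/D 2.75 ± 0.35 (adjusted p = 4.48e-05).

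Fhl1 stood at 40.5, 55.7, 51.5, 44.9 and 18.5 FPKM in +/+ cardiomyocytes, and replicate 5 was the only library below the ventricles. With it the log2 difference from F/+ ventricles was 0.21 ± 0.32 (adjusted p = 0.577), and without it 0.47 (adjusted p = 0.011). In D/D against F/F the log2 difference was 0.78 ± 0.27 (adjusted p = 0.0259), with overlapping values. Without F/F E16.5 replicate 1 the difference was 0.79 (adjusted p = 0.0675), and without replicate 2 it was 0.56 (adjusted p = 0.137), so the call was lost in both.

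Lmcd1 was the only member with an estimate below its E16.5 level, at 20.9, 16.7, 20.5, 24.95 and 23.98 FPKM in +/+ cardiomyocytes against 28.7 to 35.5 FPKM. The log2 difference was -0.55 ± 0.15 (adjusted p = 0.00958; -0.59 and 0.00386 without replicate 5). It shrank to -0.14 (adjusted p = 0.502) with median-ratio and -0.28 (adjusted p = 0.135) with upper-quartile scaling, and its adjusted p was 0.0514 without F/+ E16.5 replicate 3 and 0.0521 with all 25 libraries in 1 fit. In D/D against F/F it differed by -0.02 ± 0.32 (adjusted p = 0.959), and that sign turned with both scalings. Rcan1 stood at 55.7, 38.4, 33.5, 128 and 37.5 FPKM in +/+, with replicate 4 far above the rest, and was not called (0.06 ± 0.38, adjusted p = 0.891). The Rcan1 difference was 0.17 without replicate 5 and -0.26 without replicate 4.

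In log2 units the median over all genes tested was -0.18 in F/+ and -0.17 in F/F between the embryonic stages, -0.34 from F/+ ventricles to +/+ cardiomyocytes and -0.33 from F/F ventricles to D/D. Median-ratio scaling moved these medians by 0.20, 0.19, 0.37 and 0.37, upper-quartile scaling by 0.14, 0.16, 0.24 and 0.24, and leaving out haemoglobin genes moved the first pair by -0.29 and -0.20. The members' medians were 0.26, 0.04, 1.06 and 1.32 in the same order.

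For all 9 genes the highest of the 7 group means was that of D/+ or D/D cardiomyocytes. Nrap ran from 4.81 FPKM (mean, F/+ E11.5) over 70.0 FPKM (F/+ E16.5) to 186 FPKM (+/+ 8-week), each step beyond the spread. Ankrd1 ran from 110 FPKM at E16.5 over 234 FPKM at E11.5 to 524 FPKM at 8 weeks. Lmcd1 ran from 6.29 FPKM at E11.5 over 21.4 FPKM at 8 weeks to 31.6 FPKM at E16.5. For Csrp3 and Fhl2 the E11.5 and E16.5 means did not pass the test of their difference, nor did those of Xirp1 at E16.5 and 8 weeks. For Rcan1 and Fhl1 no neighbouring pair of these control groups passed in the main tests with all libraries. Rcan1 passed from E11.5 to E16.5 with median-ratio and upper-quartile scaling. Fhl1 passed from E16.5 to 8 weeks with replicate number as a block in the fit.

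**Figure D2:**
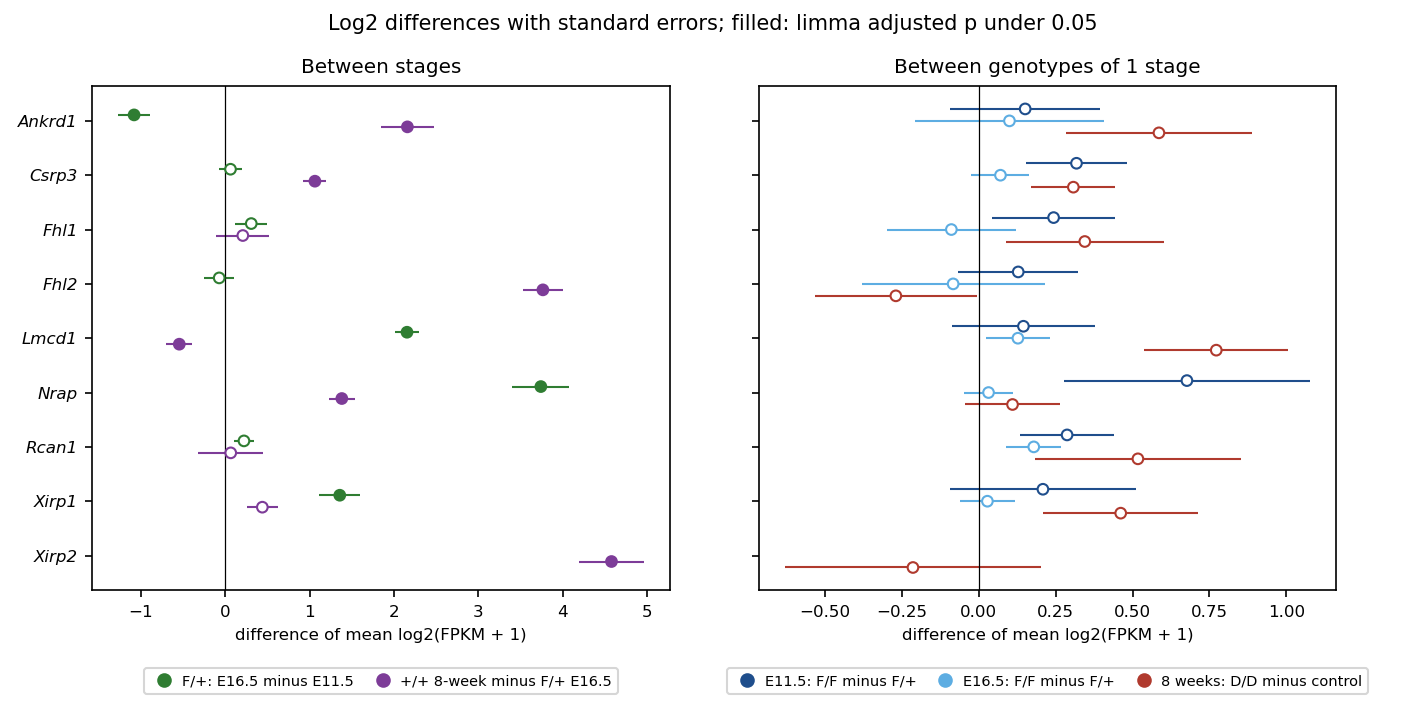
Differences of mean log2(FPKM + 1) with standard errors; the left panel sets stages against each other in controls, the right panel genotypes within a stage, and filled points passed an adjusted p of 0.05. The stage differences reach from -1.08 (Ankrd1) to 4.58 (Xirp2), while every point of the genotype panel is open.

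Genes with like patterns were looked up over the 7 bulk groups. By root mean square difference of centred log2 group means (7 values each), the nearest gene to Ankrd1 was S100a13 (0.17), to Csrp3 Tulp4 (0.07), to Xirp1 Agpat3 (0.12), to Xirp2 Lrtm1 (0.11) and to Nrap Mypn (0.24), which encodes the Z-disc protein myopalladin. The nearest to Fhl1 was Ddit4 (0.10), to Fhl2 Srp54b (0.12), to Rcan1 Rab11b (0.11) and to Lmcd1 Dok7 (0.24). The next nearest were Creg1, Atp5e, Kremen1, Asb14, Macrod1, Kank3, Pla2g5, Yipf3 and Epn3 in the order Ankrd1, Csrp3, Xirp1, Xirp2, Nrap, Fhl1, Fhl2, Rcan1 and Lmcd1.

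Other genes of the same pathways showed what surrounded the members. Of 13 Z-disc and titin partners tested from F/+ E11.5 to E16.5, 8 rose and 2 fell, led by Ldb3 (2.14 log2) and Actn2 (1.96), which encode a Z-disc PDZ-LIM protein and the actin cross-linker of the Z-disc. Of 14 tested from F/+ ventricles to +/+ cardiomyocytes 9 rose and 3 fell, led by Myot (23.1 FPKM after being listed at 0) and Cryab (4.12). Intercalated disc genes gave 5 higher and 2 lower of 12 in each, with Tln2 (1.35) and Jup (1.26) leading in the embryo and Ctnna3 (1.73) and Dsp (1.53) after it.

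Of 14 calcineurin and NFAT pathway genes, 5 rose and 2 fell in the embryo, led by Nfatc2 (2.52) and Myoz2 (1.86), which encodes a calcineurin-binding Z-disc protein. After it 1 of 13 rose and 7 fell, with Myoz2 at 3.14 and Nfatc4 at -1.71. Hypertrophic marker genes split in the embryo, 5 up and 5 down of 11, with Nppb at -4.99 and Myh7 at 2.76. After it 5 rose and 2 fell, with Nppb at 5.62 and Pln at 4.85. Nppb encodes a natriuretic peptide of strained myocardium, Myh7 a slow myosin heavy chain and Pln the calcium pump regulator phospholamban.

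Relatives of the members in the same protein families gave 3 higher and 3 lower of 9 in the embryo (Nebl -2.87, Rcan2 1.92) and 3 higher and 6 lower after it (Csrp2 -3.39, Ankrd23 3.09). YAP and serum response targets gave 3 higher and 4 lower of 10 and then 2 higher and 4 lower, with Tagln (-3.80) and Acta2 (-1.503) in the embryo, and Cnn1 (-3.83) and Cyr61 (3.68) after it. Immediate early genes gave 2 higher and 2 lower of 9 (Zfp36 0.95, Fos -0.78), and then 9 higher and 1 lower of 10, with Fos at 6.18 and Egr1 at 5.58.

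Summed over 10 genes, the immediate early transcripts stood at 141 to 160 FPKM in F/+ ventricles and at 1618 to 2586 FPKM in +/+ cardiomyocytes. Fibroblast markers stood at 790 to 973 FPKM and 38.8 to 94.5 FPKM, and cardiomyocyte markers at 16657 to 18973 FPKM and 34023 to 41682 FPKM. Of 11 cardiomyocyte markers 5 were called higher and 5 lower, with a median log2 difference of 0.32. Of 6 fibroblast markers tested 1 was called higher and 3 lower. The part of these transcripts in the rise of the members was not tested. Without the library labelled +/+ replicate 5 the lists gave, in calls higher and lower, 2 and 8 of 13 (calcineurin and NFAT), 5 and 4 of 11 (hypertrophic markers), 10 and 3 of 14 (Z-disc), 6 and 3 of 12 (intercalated disc) and 3 and 5 of 10 (YAP and serum response), with relatives and immediate early genes at the same counts. Skeletal muscle markers summed to at most 0.83 FPKM in +/+ cardiomyocytes, with 5 of 9 at 0 throughout.

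The study asked which genes differ between homozygous deletion and control hearts. Loss of the full-length allele left no call among the members at either embryonic stage. At E11.5, 0 of 8 members tested passed, where 1 of 11491 genes (0.0087%) did. The point estimates of F/F minus F/+ were above 0 for all 8, with a median of 0.23 against 0.02 over all genes, and none had an unadjusted p under 0.05, where 502 genes of the table did. The sign turned for Ankrd1 and Xirp1 when single libraries were left out. It turned for Fhl2 when Y-linked transcripts entered as a covariate. In the same libraries cardiomyocyte markers summed to 13994 to 15972 FPKM in F/F and 11580 to 13759 FPKM in F/+, with no overlap, and endothelial markers to 402 to 430 FPKM and 334 to 374 FPKM. Estimates were also above 0 for 5 of 5 hepatocyte markers (median 0.98) and 6 of 6 megakaryocyte markers (0.47). Of 11 cushion mesenchymal markers only 2 were above 0 (median -0.28). The part of these markers in the members' estimates was not tested.

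Rcan1 was the member whose E11.5 genotypes did not overlap, at 53.0, 46.7 and 54.0 FPKM in F/F against 42.2, 40.9 and 42.2 FPKM in F/+. The log2 difference was 0.29 ± 0.15 (limma, adjusted p = 0.999). Of all genes, 4.93% lay wholly above and 4.31% wholly below their controls. Csrp3 stood at 622, 480 and 554 FPKM in F/F against 375, 460 and 496 FPKM, overlapping in replicate 2 of F/F (0.32 ± 0.16, adjusted p = 0.999). Nrap had the largest estimate, 0.68 ± 0.40, from 6.66, 5.60 and 11.04 FPKM against 7.52, 4.97 and 1.93 FPKM, which overlap. The other estimates ran from 0.13 (Fhl2) to 0.24 (Fhl1).

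At E16.5, 0 of 8 members tested passed, where 1 of 10699 genes (0.00935%) did. No member had an unadjusted p under 0.05, where 281 genes did. Of the 8 estimates 6 were above 0, with a median of 0.05 against 0.004 over all genes. With single libraries left out the sign turned for Ankrd1, Xirp1, Fhl1 and Fhl2. Rcan1 again lay wholly above its controls, at 54.8, 52.8 and 58.6 FPKM in F/F against 51.4, 51.1 and 44.2 FPKM (0.18 ± 0.09, adjusted p = 1 by limma). Among all genes 3.9% lay wholly above and 2.88% wholly below. Nrap differed by 0.03 ± 0.08 and Xirp1 by 0.03 ± 0.09, the tightest estimates among the members. Ankrd1 differed by 0.10 ± 0.31, and F/F replicate 3, at 200 FPKM, stood apart from the other 5 libraries, which spanned 83.1 to 128 FPKM.

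A difference of the F effect between the stages was called for no member: 0 of 8 passed the limma interaction test, where 1 of 11423 genes (0.00875%) did. All 8 interaction estimates (E16.5 minus E11.5) were below 0, with a median of -0.20 against -0.005 over all genes, and Nrap's was -0.65 ± 0.44 (adjusted p = 0.999). The sign turned for Ankrd1, Fhl2, Lmcd1 and Xirp1 when single libraries were left out. No member and 493 genes of the table had an unadjusted p under 0.05.

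Loss of the distal part of Hand2os1 left 0 of 9 members called in 8-week cardiomyocytes (D/D against +/+ and D/+ together), where 0 of 10249 genes (0%) were called. Unadjusted, 2 members (Lmcd1, Csrp3) and 175 genes had a p under 0.05. The estimates of 7 members were above 0, with a median of 0.34 against -0.01 over all genes. No member had D/D wholly above or below the controls, where 0.0195% and 0.00976% of genes did. Without the library labelled +/+ replicate 5, again 0 of 9 members were called, and 0 of 10270 genes.

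Lmcd1 ranked 47 by size of change in the whole table. It stood at 15.4, 15.97, 16.7, 20.5, 20.9, 23.98 and 24.95 FPKM in the 7 controls and at 22.4, 23.0, 23.8, 44.1, 45.8 and 61.1 FPKM in D/D. D/D replicates 3, 5 and 6 stood clear of every control, and replicates 1, 2 and 4 lay among the highest controls. D/D exceeded the controls by 0.77 ± 0.23 on the log2 scale (limma, adjusted p = 1), by 0.82 without the library labelled +/+ replicate 5, and by 0.46 without D/D replicates 5 and 6, which were left out together after their values were seen.

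Ankrd1 stood at 312, 381, 386, 397, 696, 830 and 1017 FPKM in the controls and at 537, 568, 672, 746, 1198 and 1277 FPKM in D/D. Both groups were wide, with D/D replicates 5 and 6 at the top and D/+ replicate 1 close below them. The estimate was 0.59 ± 0.30 (log2, adjusted p = 1), 0.46 without the library labelled +/+ replicate 5 and 0.26 without D/D replicates 5 and 6. Csrp3 differed by 0.31 ± 0.14 (adjusted p = 1), by 0.26 without the library labelled +/+ replicate 5 and by 0.18 without D/D replicates 5 and 6, and its values of 906 to 1663 FPKM in D/D overlapped the controls' 804 to 1103 FPKM.

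D/D replicates 5 and 6 were also the highest in Xirp1, at 235 and 305 FPKM, where the other 11 libraries reached at most 172 FPKM. They were the lowest of D/D in Fhl2, at 636 and 414 FPKM. Rcan1 differed by 0.52 ± 0.34 (adjusted p = 1), with 177 FPKM in D/D replicate 5 and 128 FPKM in +/+ replicate 4 far from the rest. The Rcan1 estimate was 0.45 without the library labelled +/+ replicate 5 and 0.28 without D/D replicates 5 and 6. Immediate early genes summed to 5328 and 3372 FPKM in D/D replicates 5 and 6, against 1242 to 2043 FPKM in the other D/D libraries and 1618 to 2586 FPKM in the controls. YAP and serum response targets summed to 1253 FPKM in each of the pair, against at most 711 FPKM elsewhere at 8 weeks. The part of these in the members' values was not tested.

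The 8-week libraries fell into branches by their whole profiles: a set of 5, a set of 6 and a pair apart (the library labelled +/+ replicate 5 and D/D replicate 6). No label names a batch. Within the set of 5 Ankrd1 was lower in D/D (657 against 848 FPKM, means of 2 and 3 libraries, log2 -0.36). Within the set of 6 it was higher (802 against 388 FPKM, means of 3 and 3, log2 0.96). The direction of the pooled estimate was thus seen in the set of 6 only. Lmcd1 was higher in D/D in both (23.1 against 17.7 FPKM and 42.7 against 20.5 FPKM), as was Rcan1 (68.9 against 48.4 FPKM and 95.2 against 66.9 FPKM). Xirp2 turned from 0.36 to -0.41 between the sets. In the set of 5, Xirp1, Xirp2, Rcan1 and Lmcd1 were wholly above in D/D, where 10.7% of all genes were, and in the set of 6 only Ankrd1 was, where 4.52% were. Within-set differences were not tested.

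No gene of the 7 pathway lists (8 to 14 genes tested in each) was called in D/D against control, with or without the library labelled +/+ replicate 5, nor in F/F against F/+ at either stage. At 8 weeks the list medians ran from -0.03 (intercalated disc) to 0.14 (Z-disc and titin partners), beside 0.34 for the members and -0.01 for all genes.

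At single-cell resolution the E11.5 libraries held 2563 (+/+) and 3469 (F/F) barcodes, with 38302758 and 51432290 UMIs (counted molecules), where the protocol aimed at about 5000 cells each. After filters 2503 and 3368 cells remained in 17 clusters, 3 of them unnamed, with erythroid-like cells making up 38.2% and 36.8%. The libraries shared 18 barcode sequences. Over all cells Hand2os1 (listed as Gm28063) had 1 UMI in +/+ and 9 in the library labelled F/F (0.027 and 0.18 CPM). The count does not follow the labels, but it is too low to decide on them. There is 1 library per genotype, so no test was possible, and intervals cover counting error only. Levels are on the CPM scale, a gene's UMIs over all UMIs of the same cells, and are compared within a gene only.

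Cardiomyocyte-like cells, with 10 or 11 of 11 cardiomyocyte markers leading, comprised cluster 4, led by trabecular genes such as Nppa and Bmp10, cluster 9, led by Myoz2 and Irx2, and cluster 13, in which 9 of 9 atrial and sinus markers led. Cluster 11 had all 11 cardiomyocyte markers but was led by outflow genes (Sema3c, Rspo3, Bmp4, Isl1), and stayed unnamed. Cluster 4 held most of the class in +/+ (272 of 480 cells) and cluster 9 only 173, while in the library labelled F/F the numbers were 325 and 386 of 787.

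Ankrd1 was highest in cluster 11, at 4154 CPM in +/+ and 2753 CPM in the library labelled F/F. The cardiomyocyte-like clusters followed at 1855 and 969 CPM (cluster 9), 1325 and 1349 CPM (cluster 13) and 854 and 748 CPM (cluster 4). Outside muscle it reached 265 and 157 CPM in cluster 8, cushion mesenchymal-like cells led by Inhba and Meox1, and 264 and 98.3 CPM in the unnamed cluster 14, led by Rgs5 and Eln. Erythroid-like cells, which should lack the gene, had 8.64 and 12.5 CPM.

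Within a cluster Ankrd1 was uneven from cell to cell. With each cell thinned to 5000 UMIs (14 and 39 shallower cells left out), 72.5% of cardiomyocyte-like cells in +/+ and 71.8% in the library labelled F/F had a UMI of it (82.3% and 83.5% unthinned). In erythroid-like cells the share was 5.6% and 6.05% (11.9% and 16.2% unthinned), at median depths of 10904 and 11652.5 UMIs against 15381 and 14430 UMIs. The median cardiomyocyte-like cell held 3 and 2 UMIs, the 90th percentile 17 and 13, and the highest cell 55 and 44. Csrp3 was far more even, with a median of 8 UMIs in both libraries, and 98.7% and 99.9% of cells had it. In erythroid-like cells 7.77% and 16.9% had it.

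Csrp3 followed the sarcomere genes: 2245 and 2034 CPM in cluster 9, 2024 and 2309 CPM in cluster 13, 1413 and 1577 CPM in cluster 4 and 1187 and 1471 CPM in cluster 11. Outside these 4 clusters Xirp1 was at 1.69 CPM or less, except in cluster 14 (16.52 and 5.34 CPM) and in the few megakaryocyte-like cells of cluster 15 (10.3 and 4.75 CPM), and Nrap at 2.17 CPM or less. Xirp1 was at 114 and 73.7 CPM in cluster 11 and 95.03 and 80.3 CPM in cluster 4, and Nrap at 21.8 and 13.3 CPM in cluster 9. In cardiomyocyte-like cells Xirp2 had 1 UMI in +/+ and 4 in the library labelled F/F.

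The LIM and calcineurin members were spread over more cell types. Fhl2 was highest in cluster 13 (278 and 308 CPM) and cluster 9 (255 and 219 CPM), and was also found in endothelial-like cells (42.0 and 49.3 CPM) and in cluster 8 (67.2 and 66.6 CPM). Fhl1 stood at 97.95 and 91.7 CPM in epicardial-like cells, beside 94.1 and 77.5 CPM in cluster 9 and 95.6 and 150 CPM in cluster 11. Rcan1 was at 102 and 109 CPM in cluster 2, endothelial-like cells, beside 106 and 82.4 CPM in cluster 9. Lmcd1 was highest in cluster 3, cushion mesenchymal-like cells led by Msx1, at 77.5 and 68.1 CPM, above its 21.5 and 19.0 CPM in cardiomyocyte-like cells. In erythroid-like cells Fhl2, Rcan1 and Lmcd1 were at 5.60 CPM or less, and Fhl1 at 12.6 and 13.8 CPM.

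**Figure D3:**
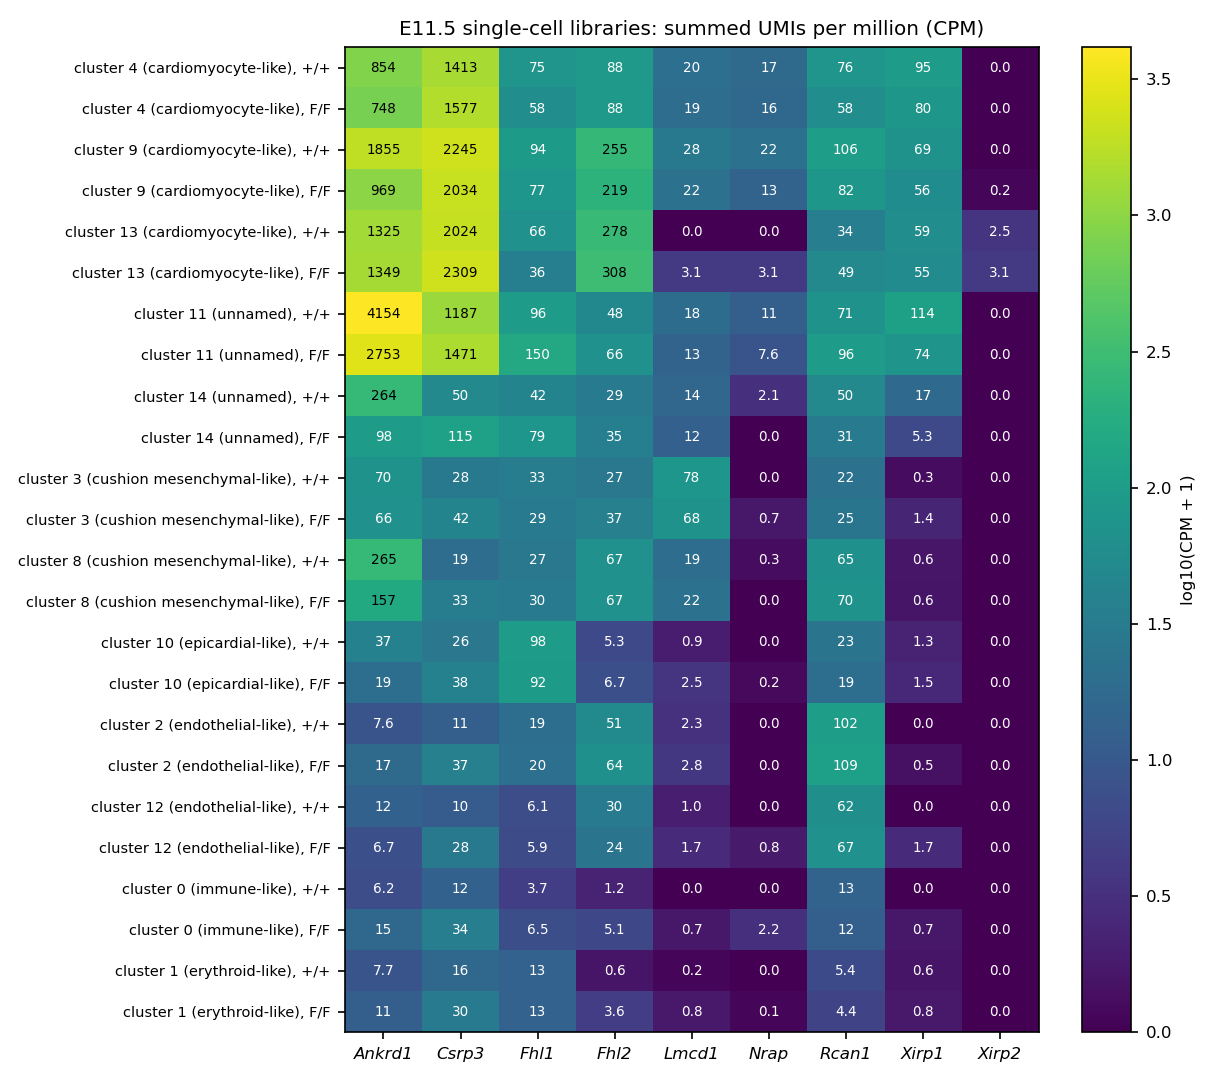
CPM of each gene (columns) in 12 of the 17 clusters of each E11.5 library (rows), printed in the cells and coloured by log10(CPM + 1). Ankrd1 peaks in cluster 11 (4154 and 2753 CPM), Lmcd1 in cluster 3, and Rcan1 stands at 102 and 109 CPM in endothelial-like cluster 2.

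Over 30 profiles of clusters and libraries the gene nearest to Ankrd1 by Pearson's r of log2(CPM + 1) was Myl9 (0.98), then Acta2 (0.98). The nearest to Csrp3 was Myl4 (0.99), to Xirp1 Fbxl22 (0.99), to Fhl1 Ddr1 (0.91), to Fhl2 Tspan2 (0.95), to Rcan1 Itga5 (0.95) and to Lmcd1 Tnfrsf12a (0.85). The second were Tnni3, Smyd1, Cxadr, Trp53inp2, Sgms1 and Mpped2 in that order. The profiles share 2 libraries and their depth, so these values only describe.

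Between the libraries, in cardiomyocyte-like cells, 0 of 8 members with at least 100 UMIs in each library differed by 1.5-fold or more, where 81 of 6478 genes (1.25%) did. Ankrd1 was lowest in ratio, 0.74 (95% counting interval 0.72 to 0.76) in the library labelled F/F over +/+, from 1227 and 907 CPM. Rcan1 (0.82, 0.74 to 0.91), Fhl1 (0.81, 0.73 to 0.90), Xirp1 (0.79, 0.71 to 0.88) and Nrap (0.77, 0.61 to 0.97) were also below 1. Csrp3 (1.07, 1.05 to 1.10) and Fhl2 (1.10, 1.02 to 1.18) were above 1, and the interval of Lmcd1 (0.89, 0.72 to 1.09) spanned 1. Within cluster 9 Csrp3 (0.91, 0.88 to 0.94) and Fhl2 (0.86, 0.78 to 0.94) were below 1. Csrp3 was above 1 in cluster 4 (1.12, 1.08 to 1.15) and cluster 13 (1.14, 1.05 to 1.24). The intervals of Fhl2 spanned 1 in both (1.01, 0.88 to 1.16, and 1.11, 0.89 to 1.39). The members' median log2 ratio was -0.29 against -0.05 over all genes. The largest cluster of the class was cluster 4 in +/+ and cluster 9 in the library labelled F/F. With each cell thinned to 5000 UMIs the ratio of Nrap was 0.50, on fewer than 100 UMIs in a library, that of Xirp1 was 0.93 and that of Rcan1 0.96.

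Among the clusters of the class the Ankrd1 ratio was lowest in cluster 9, at 0.52 (0.50 to 0.54). In cluster 9 1 of 6 members passed 1.5-fold, where 2.27% of genes did. Summed trabecular markers in cluster 9 stood at 696 CPM in +/+ and 285 CPM in the library labelled F/F, and their part in the Ankrd1 ratio was not tested. In cluster 4 the Ankrd1 ratio was 0.88 (0.84 to 0.92) and 0 of 6 members passed, where 1.01% of genes did. In cluster 13 it was 1.02 (0.92 to 1.13).

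In cluster 11 the members went both ways. Ankrd1 (0.66, 0.64 to 0.69) and Xirp1 (0.65, 0.52 to 0.80) were lower in the library labelled F/F, and Fhl1 was higher (95.6 and 150 CPM, 1.57, 1.29 to 1.91). With those, 3 of 5 members passed 1.5-fold, where 2.45% of genes did. In cushion mesenchymal-like cells Ankrd1 (0.64, 0.58 to 0.70) was lower and Csrp3 (1.62, 1.32 to 1.99) higher, 2 of 6 members, where 1.95% of genes passed. The Ankrd1 ratio was 0.59 (0.53 to 0.66) in cluster 8 and 0.94 (0.79 to 1.13) in cluster 3, and outside these cells 0.37 (0.29 to 0.47) in the unnamed cluster 14 and 0.51 (0.37 to 0.70) in epicardial-like cells. Csrp3 was at 23.6 and 38.3 CPM there, close to its erythroid-like 14.6 and 32.8 CPM, which stood at a ratio of 2.25 in the same direction, so no difference is read from it.

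**Figure D4:**
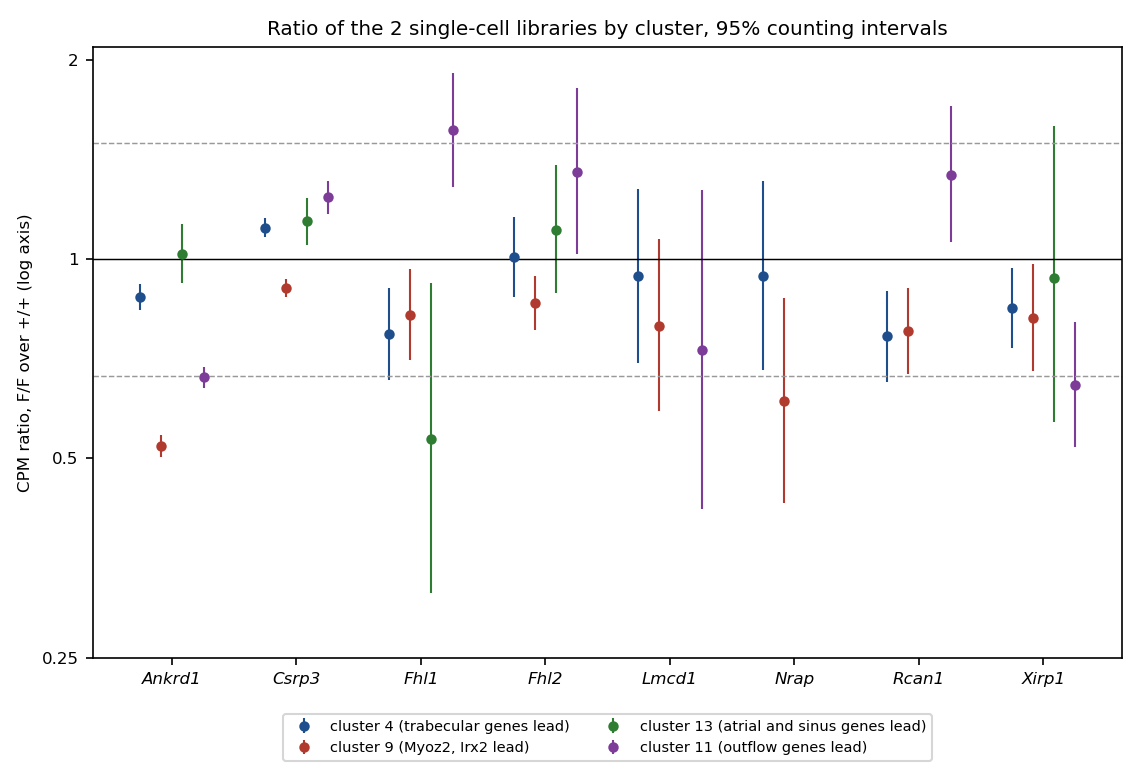
CPM in the library labelled F/F over CPM in +/+ (log axis) with 95% counting intervals, for clusters with at least 20 UMIs of the gene in each library; dashed lines mark 1.5-fold either way. Ankrd1 lies below 1 in clusters 4, 9 and 11 and at 1.02 in cluster 13, and Fhl1 in cluster 11 lies above 1.5.

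In bulk hearts of the same stage the Ankrd1 estimate was 0.15 ± 0.24 (log2, SE, F/F minus F/+, not called). It was -0.040 without F/F E11.5 replicate 1, so its sign was not steady. The single-cell ratio of the library labelled F/F over +/+ was 0.77 (0.75 to 0.79) over all cells and 0.74 in cardiomyocyte-like cells. The controls differ (F/+ and +/+), and the difference between the assays was not tested.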

How the data were processed

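Bulk RNA was extracted with TRIzol and poly(A) RNA was made into stranded TruSeq libraries, per the labels' protocols. The deposited bulk table gives 1 value per gene and library, read as FPKM from its values, since no header names the unit. The submitters' processing notes name CASAVA, TopHat, TopHat2 2.0.11 and mm9 for the series, and Cell Ranger and mm10; the program that made the FPKM is not given in the sources used here. The authors deposited the single-cell data as a table of UMI counts per gene and cell, per the file headers.

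Of 24525 bulk lines, 769 belonged to 270 symbols on more than 1 line. Each of these symbols was kept once among the 24025 genes, which hold each of the 9 genes once. The 24025 genes do not include 1 gene for which a value was missing. Groups were compared with limma 3.58.1 (R 4.3.3, trend) on log2(FPKM + 1) for genes whose mean reached 1 FPKM, with Benjamini-Hochberg adjustment over all genes at 0.05, and the script was tested on simulated data. Cells needed 500 genes or more and were clustered with scanpy 1.11.5 on 2000 variable genes, less the 7 members among them (30 components, 15 neighbours, Leiden resolution 1.0). The doublet caller marked 18 of 6019 barcodes, so the highest scores (52 in +/+, 96 in F/F) were removed instead. Clusters were named from fixed marker lists. Counts were summed per class and library, with 95% exact counting intervals. Other tools were numpy 2.4.6, pandas 2.3.3 and scipy 1.17.1.

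The 9 genes and all lists were chosen with earlier results of these data known. From each list the 2 called genes with the largest absolute log2 fold change were named in a comparison. Alternatives were another pseudocount (0.1), no filter, other scalings, no haemoglobin genes, 1 fit of all 25 libraries, a replicate block, covariates, libraries left out, and other single-cell filters, resolutions and depths.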

Additional observations from a re-analysis of the deposited data

Results flagged for a closer look

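In 18 groups of 5 or 6 libraries at 8 weeks, the highest or lowest library was checked for a gap to its neighbour of more than 0.71 (5 libraries) or 0.625 (6 libraries) of the group's range. Chance flags about 1 in 20 such groups if they are independent, and 5 stood out here. The 18 groups share the same libraries, so no excess over chance is read from the 5. Xirp2 in the library labelled +/+ replicate 5 lay at 8.83 FPKM, below the other +/+ libraries (gap over range 0.753), and Fhl2 in the same library lay at 655 FPKM (0.783). Rcan1 lay at 128 FPKM in +/+ replicate 4 (0.764) and at 177 FPKM in D/D replicate 5 (0.763), above the rest of each group. Fhl1 lay at 96.6 FPKM in D/D replicate 5 (0.73), above the other D/D libraries.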

How the results depend on the processing

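Counts of members called by limma in the bulk comparisons stayed within 1.5 times of the reported ones under every alternative run, and no called difference changed sign. Genes called over the whole table moved more. For F/F against F/+ at E11.5 they were 24 with all 25 libraries in 1 fit and 2 with the replicate block, and 1 to 2 with each library left out. At E16.5 they were 2 with a pseudocount of 0.1, 3 when Y-linked transcripts entered as a covariate, and 0 to 2 with each library left out. For the difference of the F effect between stages they were 2 with a pseudocount of 0.1, 3 with no filter and 6 with all 25 libraries, and 1 to 9 with each library left out, 9 being without F/+ E11.5 replicate 3. The causes were not tested.

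Differences that turned in sign were uncalled. With the Y-linked covariate, Fhl2 at E11.5 gave -0.012 and Fhl1 at E16.5 gave 0.078. In the interaction without haemoglobin genes, Ankrd1 gave 0.042 and Lmcd1 0.064. From F/+ E11.5 to E16.5, Fhl2 gave 0.15 with median-ratio and 0.084 with upper-quartile scaling, and without haemoglobin genes Fhl1 gave -0.0021, Csrp3 -0.26 and Rcan1 -0.092. In F/F, Fhl1 gave 0.19 and 0.15 and Csrp3 0.031 with median-ratio scaling, and Rcan1 -0.11 without haemoglobin genes. From F/F ventricles to D/D, Lmcd1 gave 0.40 and 0.25. At 8 weeks the pair left out after seeing the data gave -0.0086 for Nrap, and leaving out D/D replicates 5 and 6, also chosen so, gave 0.22 for Xirp2, -0.010 for Nrap and 0.14 for Fhl2.

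With single libraries left out, the F/F estimates at E11.5 ran from -0.040 to 0.43 for Ankrd1 and -0.032 to 0.50 for Xirp1. At E16.5 they ran from -0.29 to 0.34 for Ankrd1, -0.30 to 0.13 for Fhl1, -0.35 to 0.25 for Fhl2 and -0.036 to 0.084 for Xirp1. The interaction ran from -0.44 to 0.19 for Ankrd1, -0.48 to 0.12 for Fhl2, -0.093 to 0.067 for Lmcd1 and -0.47 to 0.059 for Xirp1. Xirp2 at 8 weeks ran from -0.46 to 0.13. Between stages, Csrp3 ran from -0.056 to 0.15 and Fhl2 from -0.25 to 0.095 in F/+, Fhl1 from -0.24 to 0.20 and Fhl2 from -0.55 to 0.045 in F/F, Rcan1 from -0.26 to 0.21 into +/+ cardiomyocytes, and Lmcd1 from -0.19 to 0.097 into D/D.

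By the rule that every same-numbered pair correlate above 0.1, replicate numbers did not pair the libraries (correlations of deviations -0.036, -0.017 and 0.082 at E11.5, and -0.081, 0.042 and -0.435 at E16.5, and 0.528, 0.418, -0.043, -0.104 and 0.213 between +/+ and D/D at 8 weeks). The 8-week values of 0.528 and 0.418 belong to replicates 1 and 2, which lay in the set of 5 in both genotypes. Replicate numbers thus followed part of the shared structure at 8 weeks. With the replicate block the members called were 0 in each genotype comparison, 4 in both embryonic stage comparisons (46% and 44.3% of all genes called) and 7 in both later ones (75% and 72.2%). The calls gained were Fhl1 in +/+ (0.50, adjusted p = 0.0366) and Xirp1 in D/D (0.41, adjusted p = 0.0484), and Rcan1 gave -0.23 in +/+. At 8 weeks the block gave 0.27 for Xirp2, -0.0099 for Nrap and 0.020 for Fhl2.

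Without a read depth, FPKM near 0 (Xirp2 in the embryo) carry no counting error. In cardiomyocyte-like cells no member with at least 100 UMIs in each library passed 1.5-fold under the single-cell alternatives run, and the Ankrd1 ratio ran from 0.70 to 0.79.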
